A study of Mus musculus with 4 samples.

Results

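The NFAT transcription factors and the phosphatase that controls them were examined in hippocampal neurospheres. The set held 10 of the 48178 genes in the table: the factors Nfatc1, Nfatc2, Nfatc3, Nfatc4 and Nfat5, the calcineurin subunits Ppp3ca, Ppp3cb and Ppp3r1, and the calcineurin regulators Rcan1 and Rcan2. Members were matched by gene name. The family was chosen by the difference between FGF13Aoe and control that is described here, because Nfatc4 was among the largest rises, so the values of the 10 members are a description and no p-value is given for them. Where a member is said to pass or not to pass the threshold of the fit over all genes, that too only describes these libraries. Genes outside the set are given with their adjusted p. All 10 members passed the filter on low values.

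Neurospheres are floating clusters of progenitors and their progeny. They were grown from the hippocampus of C57BL/6 mice at postnatal day 0 for 7 days, in medium with B27 and with EGF and FGF-2 at 20 ng/ml each. The 2 control libraries had the genotype hGFAPCre+, ROSA26FGF13A +/+, and the 2 FGF13Aoe libraries had hGFAPCre+, ROSA26FGF13A LSL/+. Both groups therefore carried hGFAPCre, by its name a Cre driven by the promoter of human GFAP, a promoter known to work in astrocytes and their progenitors; LSL is the usual shorthand for a stop cassette that Cre removes, and FGF13 is an intracellular FGF family protein. Cells of a mouse filled 2 wells, and nothing states whether replicates came from separate mice, so errors measure only the spread between these libraries. Totals ran from 9724413 to 14092685 gene-assigned reads. Fgf13 had 772 and 769 normalized counts in control and 5410 and 4447 in FGF13Aoe.

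NFATc proteins wait in the cytoplasm in a phosphorylated form. When calcium rises, calmodulin activates calcineurin, a dimer of a catalytic A subunit and a regulatory B subunit, which removes those phosphates and lets NFATc enter the nucleus and act with partners such as AP-1. RCAN proteins bind calcineurin and can inhibit it, and RCAN1 is itself a known NFAT target. Nfat5 shares the DNA-binding domain but not control by calcineurin, and answers osmotic stress. In the nervous system this pathway is known from axon growth and synaptic plasticity, from reactive astrocytes and, together with the transcription factor SOX10, from the maturation of myelinating glia.

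The NFATc genes moved apart from each other. Nfatc4 and Nfatc2, the scarcest members in control, were far more abundant in FGF13Aoe, Nfatc3 was lower, and Nfatc1 differed little. Ppp3ca, Ppp3cb, Ppp3r1 and Rcan2 were lower in FGF13Aoe. In bulk libraries fewer cells of a type cannot be told apart from less RNA per cell, and 6 of 7 neuron markers were lower and 3 of 6 astrocyte markers higher in the same libraries. In the fit across all genes, limma with a Benjamini-Hochberg threshold of 0.05, 2 of the 10 members passed as higher and 5 as lower, beside 16.2% and 19.1% of all 15204 genes tested. The control and FGF13Aoe values did not overlap in any of the 10, and neither did they in 73.7% of all genes tested. The median log2 change was -0.46 over members and -0.01 over all genes tested. Changes in the members are quoted with their standard error (SE, n = 2 per group) on the scale of log2(normalized count + 1).

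**Figure D1:**
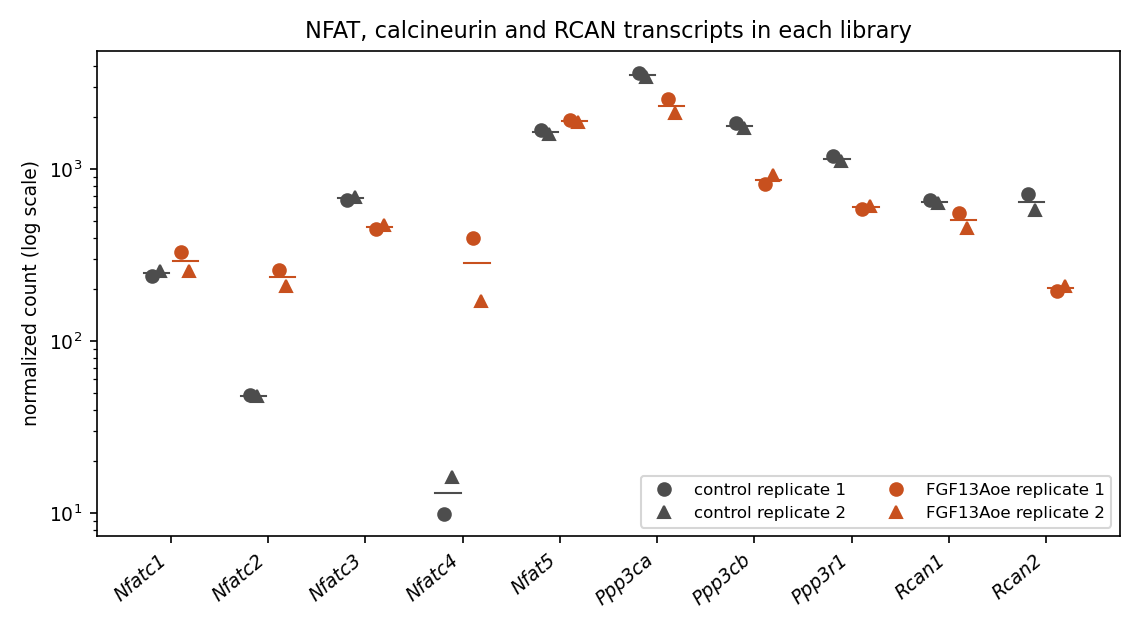
Normalized count of each transcript (log axis) in the 2 control libraries (dark) and the 2 FGF13Aoe libraries (orange), with circles for replicate 1, triangles for replicate 2 and a line at each group mean. Nfatc4 and Nfatc2 sit far higher in FGF13Aoe, and Ppp3ca, Ppp3cb, Ppp3r1 and Rcan2 lower.

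Nfatc4 (ENSMUSG00000023411, GRCm38 chromosome 14, 55823144 to 55833943, plus strand) encodes an NFATc factor studied in hippocampal neurons and in Schwann cells. Control libraries had 9.91 and 16.3 normalized counts, FGF13Aoe libraries 396 and 172. Both FGF13Aoe libraries lay far above both controls, and replicate 1 had 2.30 times the count of replicate 2. The group means were 13.1 ± 4.50 and 284 ± 159 (SD, n = 2 each), a ratio of 21.7, and the log2 change was 4.26 ± 0.48. By size of log2 change it was rank 7 among rises. Control replicate 2 held 20 Nfatc4 reads, with an exact 95% Poisson interval of 12.2 to 30.9, against 328 and 170 reads in the FGF13Aoe libraries; such intervals cover counting error only. No exonic base of Nfatc4 overlapped another annotated gene.

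Nfatc2 (ENSMUSG00000027544, chromosome 2, 168476410 to 168601657, minus strand) encodes a factor best known from T cells and described with SOX10 in oligodendrocyte differentiation. It was counted at 48.5 and 48.0 in control, against 261 and 208.5 in FGF13Aoe. The controls were nearly equal, and every FGF13Aoe value stood well clear of them. The ratio of means was 4.86, the log2 change was 2.25 ± 0.23, and it was rank 226 among rises.

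The promoter windows of these genes, from RefSeq on GRCm38.p6, are shown because the pair rose in the same 2 libraries. Each runs from 250 bases before to 50 after a transcript start, 5′ to 3′ on the gene's strand, with capitals marking the NFAT core GGAAA or its reverse complement TTTCC. The Nfatc4 window is chr14:55824545-55824844 (plus strand) and the Nfatc2 window chr2:168601608-168601907 (minus strand, the upstream of 2 starts); the former lies inside the annotated span of its gene.
Nfatc4: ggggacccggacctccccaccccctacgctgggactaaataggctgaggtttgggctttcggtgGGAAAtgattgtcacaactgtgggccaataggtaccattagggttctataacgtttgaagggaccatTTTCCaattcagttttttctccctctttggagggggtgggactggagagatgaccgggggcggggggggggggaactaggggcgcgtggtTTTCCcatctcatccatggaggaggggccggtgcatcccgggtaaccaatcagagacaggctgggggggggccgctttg
Nfatc2: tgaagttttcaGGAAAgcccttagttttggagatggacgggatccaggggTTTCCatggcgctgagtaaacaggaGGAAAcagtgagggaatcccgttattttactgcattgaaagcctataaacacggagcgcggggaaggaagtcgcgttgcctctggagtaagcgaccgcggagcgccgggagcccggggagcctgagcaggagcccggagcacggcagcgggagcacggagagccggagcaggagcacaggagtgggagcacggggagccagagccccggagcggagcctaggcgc
Each of these windows held 3 copies of the core, with no copy overlapping another. At least 3 copies were in 9.4% of 32851 mouse promoter windows of that length, and at least 1 in 61.3%, with a median of 1. The other Nfatc2 start had 1 copy. A match of letters is a description and does not show binding.

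Nfatc3 (ENSMUSG00000031902, chromosome 8, 106058840 to 106130537, plus strand), the most abundant NFATc gene in control, is broadly expressed in neural cells. It had 665 and 691 normalized counts in control, against 447 and 477 in FGF13Aoe. Both FGF13Aoe values were lower, at 68.2% of the control mean, and the replicates of each group were close. The log2 change was -0.55 ± 0.12. Esrp2, on the other strand, shares 1.87% of its exonic bases.

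Nfatc1 (ENSMUSG00000033016, chromosome 18, 80606205 to 80713071, minus strand) is known from heart valve and osteoclast development. Control had 240 and 255 counts and FGF13Aoe 331 and 257, where replicate 2 lay just above the higher control. The log2 change of 0.24 ± 0.19 did not pass. Nfat5 (ENSMUSG00000003847, chromosome 8, 107293470 to 107379517, plus strand), the osmotic factor, had 1680 and 1606 counts in control and 1946 and 1882 in FGF13Aoe. The libraries of each group were tight and the FGF13Aoe values 1.17 times the control on average, with a log2 change of 0.22 ± 0.11 that did not pass.

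Levels of different genes can be compared only per length, here as normalized counts per kilobase of annotated exon. On that scale Nfatc3 made up 59.6% and 58.6% of the summed level of the 4 NFATc genes in control, against 21.7% and 32.7% in FGF13Aoe. Nfatc4 made up 1.79% and 2.79% in control and 38.9% and 23.8% in FGF13Aoe. Nfatc4 thus went from the least of the 4 to the highest in FGF13Aoe replicate 1, and in replicate 2 it stayed below Nfatc3 and Nfatc1. The share of Nfatc2 was 4.83% and 4.52% in control and 14.1% and 15.8% in FGF13Aoe. The share of Nfatc1 was 33.8% and 34.1% in control and 25.3% and 27.7% in FGF13Aoe. The summed level of the 4 genes was 95.1 and 100.4 per kilobase in control and 175 and 124 in FGF13Aoe, higher in both FGF13Aoe libraries.

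**Figure D2:**
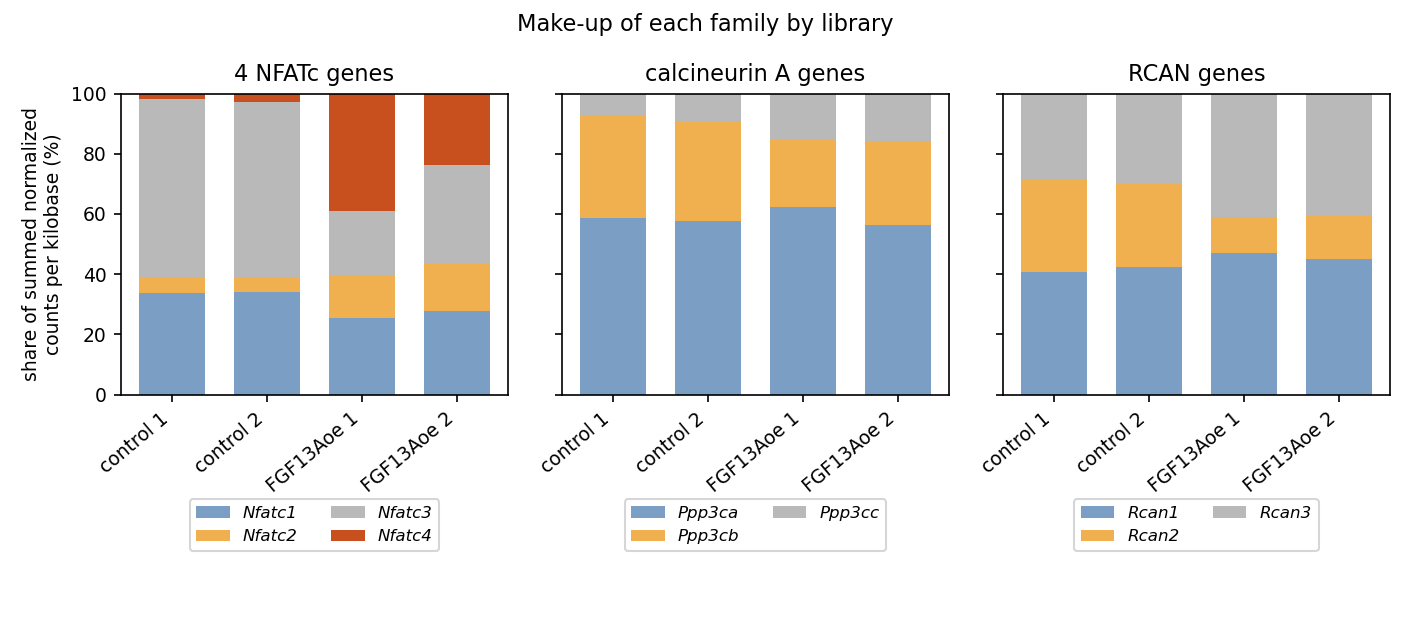
Stacked bars of the share (%) that each gene takes of the summed normalized counts per kilobase of its family, by library, for the 4 NFATc genes, the 3 calcineurin A genes and the 3 RCAN genes. Nfatc3 takes 59.6% and 58.6% in control and 21.7% and 32.7% in FGF13Aoe, while the Rcan2 share falls to 11.8% and 14.6%.

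The 3 calcineurin subunit genes of the set were lower in FGF13Aoe, and 2 others, Ppp3cc and Ppp3r2, did not pass. Ppp3ca (ENSMUSG00000028161, chromosome 3, 136670124 to 136937727, plus strand), the catalytic A alpha subunit and the main form in brain, had 3638 and 3442 normalized counts in control and 2557 and 2130 in FGF13Aoe. Both FGF13Aoe values lay below both controls, and the log2 change was -0.60 ± 0.14. Ppp3cb (ENSMUSG00000021816, chromosome 14, 20499364 to 20546573, minus strand), the catalytic A beta subunit, had 1851 and 1730 counts in control and 819 and 920 in FGF13Aoe. The FGF13Aoe mean was 48.6% of control, and the log2 change was -1.04 ± 0.12. Ppp3r1 (ENSMUSG00000033953, chromosome 11, 17159263 to 17200375, plus strand), the calcium-binding regulatory B subunit, had 1194 and 1110 counts in control and 591 and 614 in FGF13Aoe. Its FGF13Aoe mean was 52.3% of control with tight replicates, and the log2 change was -0.93 ± 0.12. Wdr92, on the same strand, shares 14.3% of the exonic sequence of Ppp3r1, so its count is uncertain to that extent.

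Ppp3cc, the catalytic A gamma subunit and not a member of the set, had 142 and 171 counts in control, against 188.5 and 184 (log2 change 0.26 ± 0.19, limma adjusted p = 0.328), higher without overlap. Ppp3r2, a second regulatory B gene, had 5.94 and 11.4 counts in control, against 10.9 and 7.09 in FGF13Aoe, and the groups overlapped (log2 change 0.08 ± 0.53, adjusted p = 0.918). The Ppp3cc share of the 3 catalytic genes per kilobase was 7.63% and 9.56% in control and 15.3% and 16.3% in FGF13Aoe, while that of Ppp3cb was 33.8% and 32.8% against 22.6% and 27.5%. The share of Ppp3ca was 58.6% and 57.6% in control and 62.1% and 56.2% in FGF13Aoe, where the groups overlapped. The summed catalytic level was 622 and 598 per kilobase in control and 412 and 379.5 in FGF13Aoe. The ratio of Ppp3ca to Ppp3r1 per kilobase was 0.986 and 1.00 in control and 1.40 and 1.12 in FGF13Aoe.

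The promoter window of Ppp3cb, the calcineurin gene with the largest log2 change, is chr14:20546524-20546823 (minus strand), with the same capitals.
Ppp3cb: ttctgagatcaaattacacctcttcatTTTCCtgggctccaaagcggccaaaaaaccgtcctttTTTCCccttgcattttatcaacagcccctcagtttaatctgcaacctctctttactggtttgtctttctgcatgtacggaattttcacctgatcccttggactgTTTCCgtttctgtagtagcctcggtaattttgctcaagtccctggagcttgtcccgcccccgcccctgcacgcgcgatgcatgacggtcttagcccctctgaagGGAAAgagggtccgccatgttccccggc
It held 4 copies of the core, a number reached by 2.6% of mouse windows, while the Ppp3r1 window held 0. Copies of the core were thus found in windows of genes that were higher and of genes that were lower.

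The RCAN genes differed in size of change. Rcan2 (ENSMUSG00000039601, chromosome 17, 43801351 to 44039516, plus strand), a calcineurin-binding regulator prominent in brain, had 713 and 582.5 normalized counts in control and 197 and 208.5 in FGF13Aoe. Both FGF13Aoe libraries lay far below the controls, at 31.3% of their mean, and the log2 change was -1.67 ± 0.16, the largest fall among the 10 members. Rcan1 (ENSMUSG00000022951, chromosome 16, 92391953 to 92470867, minus strand), the regulator that NFAT itself is known to induce, had 664 and 632 counts in control and 557 and 456.5 in FGF13Aoe. Its FGF13Aoe values were lower without overlap, at 78.2% of the control mean, but the log2 change of -0.36 ± 0.15 did not pass. Rcan3, the third gene of the family, had 761 and 748 counts in control and 805 and 675 in FGF13Aoe, and the groups overlapped (log2 change -0.03 ± 0.14, limma adjusted p = 0.862).

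Per kilobase, the share of Rcan2 in the 3 RCAN genes was 30.9% and 27.5% in control and 11.8% and 14.6% in FGF13Aoe. Rcan1 took 40.8% and 42.3% against 47.1% and 45.1%. The Rcan1 to Rcan2 ratio was 1.32 and 1.54 in control and 4.01 and 3.10 in FGF13Aoe.

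Transcripts of Rcan1 start at several places, and known induction by NFAT runs through a start inside the gene. The RefSeq window of the downstream start, chr16:92400029-92400328 (minus strand), is shown for that reason.
Rcan1: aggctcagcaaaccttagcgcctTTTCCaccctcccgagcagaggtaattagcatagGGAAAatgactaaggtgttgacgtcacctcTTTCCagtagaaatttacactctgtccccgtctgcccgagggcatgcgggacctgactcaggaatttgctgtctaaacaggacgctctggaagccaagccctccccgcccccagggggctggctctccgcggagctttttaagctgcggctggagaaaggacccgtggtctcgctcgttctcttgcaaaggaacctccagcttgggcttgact
It held 3 copies of the core, and the window of the upstream start held 0. Counts per gene do not separate transcripts from these starts. RefSeq windows were matched for 8 of the 10 members, 13 windows in all. Of these 13, 8 held at least 1 copy of the core, beside 61.3% of 32851 mouse windows. The windows printed above are those with at least 3 copies. The Nfat5 window held 2, the Nfatc3 windows 1 and 0, and the Rcan2 windows 2, 0 and 0.

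In control, the order of members per kilobase ran from Ppp3r1 (357) and Ppp3ca (355), whose replicates overlapped, through Rcan1 (210.0) and Ppp3cb (203), which also overlapped. Below them stood Rcan2 (148), Nfat5 (89.4), Nfatc3 (57.8), Nfatc1 (33.2), Nfatc2 (4.56) and Nfatc4 (2.25), each clear of the next. Phosphatase and regulator transcripts were thus more abundant per length than those of every NFATc gene. In FGF13Aoe the order was Ppp3ca (235), Ppp3r1 (187), Rcan1 (164), Nfat5 (104), Ppp3cb (98.7), Nfatc4 (48.9), Rcan2 (46.4), Nfatc3 (39.4), Nfatc1 (39.4) and Nfatc2 (22.2). Nfat5 and Ppp3cb overlapped there, Nfatc4 spanned Rcan2, Nfatc3 and Nfatc1, and Nfatc3 lay within the range of Nfatc1.

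**Figure D3:**
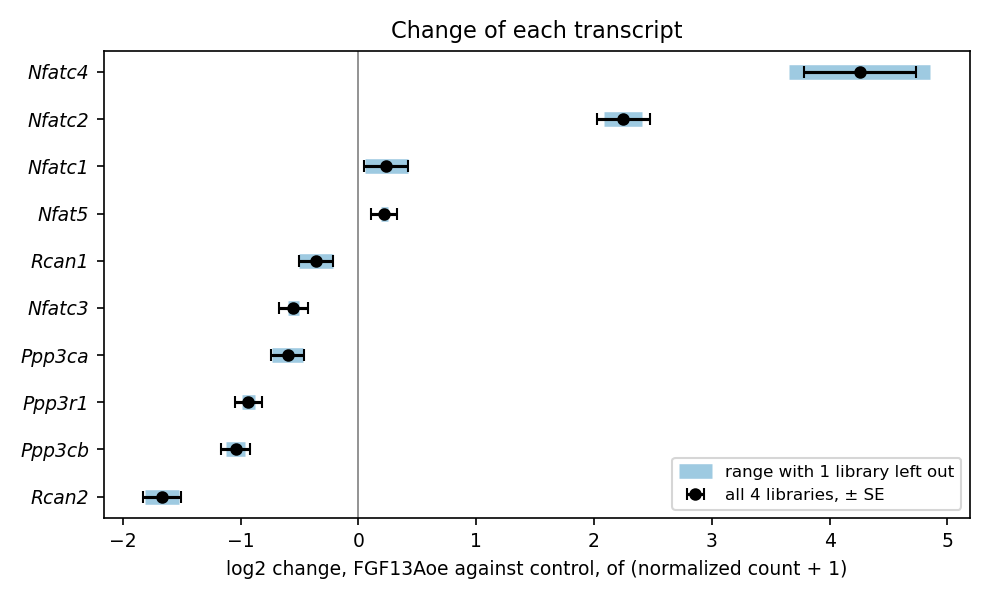
Log2 change of each transcript, FGF13Aoe against control, with all 4 libraries (point, bar ± SE) and the range when each library in turn was left out (blue). Nfatc4 spans 3.66 to 4.86 and Rcan2 -1.81 to -1.52.

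Because the members were chosen on these libraries and their groups do not overlap, refits with a library left out give no independent support, and only the calls that ended or appeared are listed. Ppp3r1 (-0.88) missed the threshold once control replicate 1 was left out. Nfatc3 (-0.58 and -0.52) and Ppp3ca (-0.56 and -0.64) did not pass without control replicate 1 or without control replicate 2. Rcan1 passed only without FGF13Aoe replicate 1 (log2 change -0.50). The share of all tested genes that passed in either direction was 9.33% and 11.5% without control replicates 1 and 2, and 35.2% and 41.2% without FGF13Aoe replicates 1 and 2.

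Among the 5 genes whose centred log2 profile over the 4 libraries lay nearest to that of Nfatc4, by Euclidean distance among 11927 named genes whose higher group averaged 50 or more, were Lgi4 (distance 0.58), H2-K2 (0.62), Txnip (0.67) and Ntsr2 (0.71). With 4 libraries such likeness says little more than that each was low in control and high in FGF13Aoe. Txnip, a thioredoxin-binding protein gene, had 170.4 and 213 counts in control, against 3297 and 1882 in FGF13Aoe, the same order of libraries as Nfatc4. Fxyd3 shares 44.9% of the exonic bases of Lgi4 and a predicted gene 19.4% of those of Txnip, each from the other strand, and H2-K2 resembles other histocompatibility genes, so these counts are uncertain.

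The genes around calcineurin and NFAT were read from 7 lists drawn from general knowledge of the pathway. Earlier results of these data were known when the lists were chosen. Over their 87 tested genes, 8 passed as higher and 27 as lower, beside the 16.2% and 19.1% of all genes, with a median log2 change of -0.26. Upstream of calcineurin, Calm2 and Calm3, which encode the calcium sensor calmodulin, fell, with log2 changes of -1.30 ± 0.12 and -1.18 ± 0.13 (limma adjusted p = 0.00194 and 0.00326). Calm2 had 6057 and 6023 counts in control, against 2497 and 2417 in FGF13Aoe. In the list of calcineurin subunits, docking proteins and inhibitors 5 of 13 tested genes fell, among them Calm2, Calm3, Ppia and Fkbp1a. The last 2 encode the binding proteins of cyclosporin and FK506. Ppia, Calm2 and Calm3 have processed copies elsewhere in the genome, so their counts are uncertain. Chp1, a calcineurin B homologue, rose (0.43 ± 0.13, adjusted p = 0.0459), and the median was -0.26.

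Of 19 tested genes of calcium entry and release 8 fell and 2 rose, with a median of -0.31. The ryanodine receptor gene Ryr2, a calcium release channel, fell from 378 and 342.5 counts to 32.6 and 32.4 (log2 change -3.43 ± 0.21, limma adjusted p = 0.00111). Orai2, a subunit of the store-operated calcium channel, fell from 708 and 621 to 139 and 127.5 (-2.31 ± 0.16, adjusted p = 0.00121). The IP3 receptor genes went opposite ways: Itpr2 rose from 1146 and 1276 to 2827 and 2683 (1.19 ± 0.12, adjusted p = 0.00244), and Itpr1 fell from 771 and 787 to 321 and 178 (-1.70 ± 0.28, adjusted p = 0.00867). Plcg1, a phospholipase that makes IP3, was the other gene to rise (0.56 ± 0.11, adjusted p = 0.0146).

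Of 19 tested kinase, retention and transport genes 6 fell and 0 rose, with a median of -0.29. Mapk10 and Mapk8, the JNK kinases JNK3 and JNK1, fell by 1.68 ± 0.16 and 1.34 ± 0.14 on the log2 scale (limma adjusted p = 0.0022 and 0.0028). Homer2, a scaffold that competes with calcineurin for NFAT in T cells, fell by 1.35 ± 0.27 (adjusted p = 0.0142). Chosen after their values were seen, the NFAT kinase genes Gsk3b and Dyrk1a had log2 changes of -0.17 and -0.12 and did not pass (adjusted p = 0.355 and 0.435). Nron, a noncoding repressor of NFAT chosen in the same way, had at most 2.42 normalized counts in a library and was not tested.

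Of 11 tested AP-1 and MEF2 genes 1 rose and 2 fell, with a median of -0.10. Fos, an immediate early AP-1 subunit, rose from 834 and 579 counts to 1474 and 1436 (log2 change 1.07 ± 0.19, limma adjusted p = 0.0107). Mef2c, a neuronal and muscle transcription factor that calcineurin also activates, fell from 2675 and 3045 to 619 and 526 (-2.32 ± 0.14, adjusted p = 0.00111), and Mef2a fell by 0.59 ± 0.12 (adjusted p = 0.0165).

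Of 16 genes described as NFATc targets in other cells 10 were tested, 1 rose and 3 fell, with a median of -0.69. Egr2, a transcription factor of myelination in Schwann cells that NFATc4 and SOX10 are known to activate there, rose from 58.5 and 172.5 counts to 910 and 443 (log2 change 2.65 ± 0.57, limma adjusted p = 0.0184). Gap43, a growth cone gene, fell from 4383 and 4331 to 791 and 672 (-2.58 ± 0.13, adjusted p = 0.00111). Itpr1, already given, was the second to fall. Myh7, a cardiac myosin gene with antisense genes over its exons, had 21 and 16 reads in control and 0 and 1 in FGF13Aoe. The depth-scaled ratio of control to FGF13Aoe was 30.0, with a 95% counting interval of 5.06 to 1217 that covers counting error only. Recovery of whole reads was not accepted for control replicate 1, so its 21 reads and the ratio are uncertain. Values of further genes are given though chosen after they were seen. The T cell targets Il2, Ifng, Cd40lg and Fasl had at most 2.97 counts in a library. Other listed targets were counted. Il4 had 127 and 91.1 counts in control and 128 and 122.5 in FGF13Aoe (limma adjusted p = 0.514). Tnf had 12.9 and 13.8 in control and 3.625 and 18.2 in FGF13Aoe, and neither gene passed. Ptgs2 had 20.8 and 32.5 counts in control and 445 and 49.6 in FGF13Aoe, high in replicate 1 alone, and did not pass (adjusted p = 0.0974).

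Among NFAT5 targets of the osmotic response 2 of 6 tested genes fell, with a median of -0.24. They were the taurine transporter gene Slc6a6, from 2178 and 2147 counts to 722.5 and 927 (log2 change -1.40 ± 0.15, limma adjusted p = 0.00292), and the aldose reductase gene Akr1b3, from 806 and 908 to 278 and 390 (-1.38 ± 0.19, adjusted p = 0.00564). Of 10 other calcineurin substrates 3 rose, Ppp1r1a, Crtc2 and Tfeb, and 2 fell, Dnm1l and Mapt, with a median of 0.23. Ppp1r1a, a protein phosphatase 1 inhibitor, rose by 0.92 ± 0.12 and the mitochondrial fission gene Dnm1l fell by 0.67 ± 0.11 (adjusted p = 0.00493 and 0.00899).

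**Figure D4:**
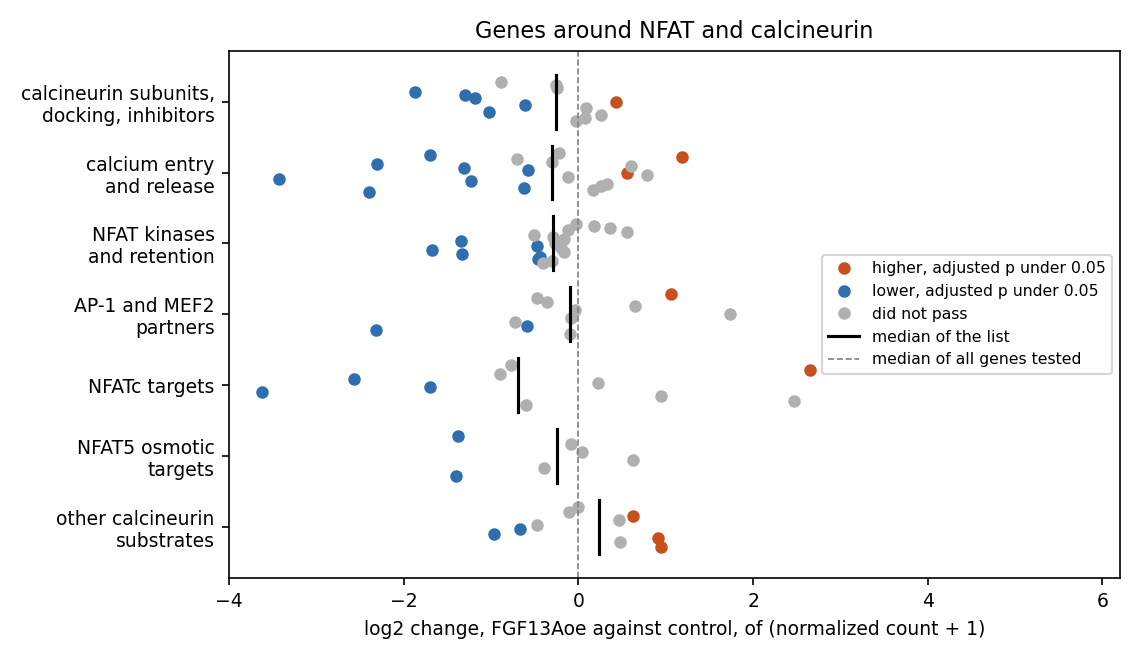
Log2 change of each tested gene in 7 lists (points; orange higher and blue lower at adjusted p under 0.05, grey did not pass), with the median of each list (black) and of all genes tested (dashed). The lists hold 8 higher and 27 lower genes over 87 genes.

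Of the 35 list genes that passed, 21 missed the threshold once control replicate 1 was left out and 18 once control replicate 2 was. Leaving out FGF13Aoe replicate 1 or 2 ended 5 calls or 1. Among the named genes, limma adjusted p without control replicates 1 and 2 was 0.0552 and 0.0515 for Itpr1, 0.0957 and 0.0667 for Homer2, 0.0952 and 0.0876 for Dnm1l, and 0.153 and 0.107 for Mef2a. It was 0.0659 and 0.068 for Ppia, 0.116 and 0.123 for Fkbp1a, 0.133 and 0.145 for Plcg1, 0.147 and 0.11 for Crtc2, 0.18 and 0.0912 for Tfeb, and 0.233 and 0.248 for Chp1. Without control replicate 1 alone, it was 0.0587 for Egr2, 0.0698 for Myh7, 0.0575 for Ppp1r1a and 0.16 for Mapt, and without control replicate 2 alone it was 0.0576 for Fos. Without FGF13Aoe replicate 1 it was 0.0555 for Egr2, 0.0622 for Chp1, 0.0691 for Mapt and 0.0744 for Tfeb. Calm2, Calm3, Ryr2, Orai2, Itpr2, Mapk8, Mapk10, Mef2c, Gap43, Slc6a6 and Akr1b3 passed in all 4 of these fits.

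Markers of several cell types moved with these genes. Markers of the labelled cell type, the neural progenitor, were present in every library, and 5 of 8 were higher and 1, Nes, lower in FGF13Aoe; their sum was 70500 and 76526 normalized counts in control and 59806 and 73725 in FGF13Aoe, where the groups overlapped. Sox2, a progenitor transcription factor, had 1584 and 1750 counts in control and 3381 and 3812 in FGF13Aoe. Of 7 neuron markers 6 fell, and their sum was 33101 and 27275 in control and 9496 and 12201 in FGF13Aoe. Of 6 astrocyte markers 3 rose, Gfap, Aqp4 and Gja1, while Aldh1l1, S100b and Slc1a3 did not pass. Control libraries summed to 59531 and 41779 and FGF13Aoe libraries to 160034 and 179293. Most of that difference was Gfap, with 30380 and 12880 counts in control and 111400 and 135800 in FGF13Aoe. Of 8 oligodendrocyte lineage markers 3 rose, among them the myelin genes Bcas1 and Mbp. The markers summed to 21964 and 26374 in control against 38019 and 42946 in FGF13Aoe. Olig1, Olig2 and Mog were lower in FGF13Aoe without overlap, Pdgfra was higher and Cspg4 overlapped, and none of these passed. Olig1 had 13270 and 14480 counts in control and 5731 and 10090 in FGF13Aoe. Sox10, the partner of NFATc factors in myelinating glia, rose from 474.5 and 823 counts to 3956 and 4194 (log2 change 2.70 ± 0.26, limma adjusted p = 0.00215). Between the groups, Nfatc4, Nfatc2 and Egr2 were thus higher where Gfap, Bcas1, Mbp and Sox10 transcripts were more abundant. Ppp3ca, Ppp3cb, Ppp3r1, Rcan2, Mef2c and Gap43, which is itself among the neuron markers, were lower where neuronal ones were fewer. Within control, replicate 1, with the higher neuron sum, had more Ppp3ca, Ppp3cb, Ppp3r1, Rcan2 and Gap43 but less Mef2c. Control replicate 2, with the higher oligodendrocyte lineage sum but the lower astrocyte sum, had more Nfatc4 and Egr2 and nearly equal Nfatc2. Within FGF13Aoe, Nfatc4, Nfatc2 and Egr2 were higher in replicate 1, which had the lower astrocyte and oligodendrocyte lineage sums. FGF13Aoe replicate 2 had the higher neuron sum through Map2, the neuron marker that did not pass. Map2 had 7195 counts in FGF13Aoe replicate 1 and 10150 in replicate 2. Of the other neuron markers, Snap25 was slightly higher in replicate 2, and Gap43, Rbfox3, Stmn2, Syt1 and Tubb3 were lower. FGF13Aoe replicate 2 had more Ppp3cb, Ppp3r1 and Rcan2 but less Ppp3ca and Mef2c. The part of the marker shifts in the values above was not tested.

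Markers of lymphocytes, the classic NFAT cells, were scarce. Of 8 lymphocyte markers 7 stayed under 10 counts in every library, Cd3d and Nkg7 were listed at 0, and the sum was 4.83 to 38.6 per library. Microglia and macrophage markers summed to 259 to 403 in control and 142 to 188.5 in FGF13Aoe. Endothelial markers summed to 53.7 to 171 in control and 62.8 to 85.0 in FGF13Aoe. Pericyte, smooth muscle and meningeal markers summed to 885 to 981 in control and 287.5 to 365 in FGF13Aoe. Ependymal and choroid plexus markers summed to 731 to 2179 in control and 575 to 620 in FGF13Aoe, with Tmem212 at 0. Most of the upper control value was Ttr, with 1613 counts in control replicate 1 and 94.4 in control replicate 2. The 6 Schwann cell and neural crest markers summed to 543 and 1006 in control and 4867 and 4640 in FGF13Aoe. Of these, Foxd3 was listed at 0, Pmp2 and Scn7a stayed under 10, and the 2 that rose were Sox10 and Egr2. Oligodendrocyte lineage cells also express Sox10.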

How the data were processed

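Hippocampal neurosphere RNA was extracted with Trizol, and the NEBNext Ultra kit gave the libraries, per the labels' protocols. STAR, DESeq2 and mm10 are named in the submitters' processing notes; for versions, annotation release and strand the sources used here give nothing. The deposited table has a normalized signal per gene and library, read counts that the authors divided by a size factor, for 48178 genes. Their table also holds the deposited log2 fold change, its standard error and Wald score, and the authors' p-value; these served only as an alternative. No per-library column went unused (0).

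From these values log2(normalized count + 1) was fitted with limma 3.58.1 (R 4.3.3) for genes that reached 10 in 2 or more of 4 libraries, with an intensity trend and Benjamini-Hochberg adjustment over 15204 genes. The fits were run on simulated data with the same dispersion in both groups. That run checked the code and not the error rate in these libraries. Values were whole multiples of a step in each library (tolerance 1e-06); for control replicate 1 the step, 0.991, was too near 1 for recovery of reads to be accepted, so edgeR 4.0.16 was run on the other 3 libraries only, and the depth and reads of that library rest on this step. Counting intervals (95%) cover counting error only. Lengths, positions and overlaps came from GENCODE M21 on GRCm38, and promoter windows from RefSeq GRCm38.p6.

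The members and lists were chosen with earlier results of these data known. Named genes are all members, the 3 smallest p of each list, genes needed to read counts of 5 or fewer, and the 5 profiles nearest to Nfatc4; exceptions are stated, and some genes that this rule names are not reported here. Alternatives covered the pseudocount, filter, scaling, trend, replicate block and leaving out each library. No label states that the replicate numbers pair the samples, and the main fit did not pair them.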

Additional observations from a re-analysis of the deposited data

How the results depend on the processing

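With a replicate block 2049 genes were higher and 2647 lower (2467 and 2906 without it), and 2 and 5 members; replicate differences of the groups correlated at -0.10 across genes. With the crossed replicate block, chosen after seeing the data, 2816 genes were higher and 3257 lower, and 15 pathway list genes were higher. Pathway list genes higher numbered 13 with median centring, which moved the median difference by 0.07, and 4 with no intensity trend, where 3 members were lower. With edgeR on reads of 3 libraries, 537 genes were higher and 1086 lower, 2 members were lower, and pathway list genes numbered 2 higher and 13 lower; fewer samples entered that fit. Leaving out each library in turn gave 551 to 2822 higher and 867 to 3447 lower genes, 2 to 6 lower members, and 2 to 15 higher and 12 to 32 lower pathway list genes; a lone library was then assumed to vary like the other group. Depth limits Nfatc4 in control, where few reads were counted.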
